A study of Mus musculus with 40 samples.

Results

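The fatty acid oxidation genes described here are Cpt1a, Cpt1b, Cpt2, Acadvl, Acadl, Acadm, Hadha, Hadhb, Ppara and Pdk4. Their probes are those whose gene symbol in the deposited fold change table is 1 of these names: 12 probes, which make 10 of the 29411 gene symbols on the array. Cpt1a and Cpt1b have 2 probes each, and of these the probe that is brighter on average over the arrays stands for the gene. All 10 genes passed the filter on dim probes in all 7 comparisons.

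The arrays measured RNA of C57BL/6J mice from cells of the stromal vascular fraction of subcutaneous fat, which the series calls infiltrating macrophages. Weaned mice, 3 to 4 weeks old at the start, were divided into 5 groups of 30 and fed 1 of 5 diets, and the protocol states that 5 per group were killed at each interval. LFC is the low-fat control diet with 10% of calories from fat, and HFC is the high-fat diet with added sucrose and 60% of calories from fat. HF5, HF20 and HF75 are the HFC diet with 5, 20 or 75 µg of Kal-1, a botanical formulation. LFC and HFC have 11 arrays each, from days 1, 6, 10 and 14 and from weeks 0, 3, 6, 9, 12, 15 and 18, where week 0 is taken as day 14 and week 18 as day 140. HF5 has 6 arrays, from weeks 3 to 18, and HF20 and HF75 have 5 each, from weeks 3 to 15. There is 1 array per diet and time point label, so that LFC and HFC have 2 arrays each at day 14, labelled day 14 and week 0, and the labels do not say whether an array holds 1 animal or a pool. The design text speaks of 3 biological replicates, which the labels do not identify. A p-value below therefore measures the spread between these arrays, over time points that are not replicates of each other.

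Fatty acids enter mitochondria as carnitine esters. Cpt1a and Cpt1b, the forms of the outer membrane enzyme typical of liver and of muscle and brown fat, make these esters, and Cpt2 on the inner membrane turns them back into acyl-CoA, which is then shortened in repeated cycles by dehydrogenases and by the trifunctional protein. Ppara is a nuclear receptor that activates many of these genes, and Pdk4 is a kinase that inhibits pyruvate dehydrogenase and so spares glucose when fat is burned. In adipose tissue, adipocytes, above all brown ones, carry high levels of this machinery, and macrophages use it too.

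The label was checked against lists of cell type markers. All levels are log2 of the processed signal after subtracting the 75th percentile of all spots, so 0 is the level of a fairly bright probe. The 8 macrophage genes were all well above background on 34 of 38 arrays, with a summed level from 2.03 to 6.15 and a median of 4.31, and the probe of Cd14 was the brightest of them on average. Adgre1, found under its older name Emr1, lay between -0.01 and 3.25 with a median of 1.97. The 7 fibroblast genes had a median summed level of 8.25, with Dcn as the probe brightest on average, and the 8 adipocyte genes one of 7.52, with Fabp4, each with every gene well above background on 34 arrays. Brightness of different probes is no measure of abundance between genes. The arrays thus hold RNA of genes typical of several cell types, and the samples are called SVC arrays below.

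On 2 arrays the values stand apart over the whole array. The LFC array of week 3 (day 35) had a 75th percentile of 7.86 and 16.8% of spots well above background, and the LFC array labelled day 14 had 9104 outlier spots. Their median rank correlations with the other arrays were 0.447 and 0.471, against 0.832 to 0.941 on the other 36. On the LFC array of week 3 the probes of 8 of the 10 genes were not well above background, 7 of them at the lowest level it could measure (-0.03), so these arrays are kept in the ranges below and the differences between diets and periods that use them are also given without them. A level at the lowest that an array could measure is an upper bound, and differences that use it are not exact. The LFC array of week 18 stands apart by its cell type markers: its summed level was 0.26 for the adipocyte list, -1.61 for the fibroblast list and -0.86 for the endothelial list, where the medians of the 38 arrays were 7.52, 8.25 and 4.72, and its rank correlation of 0.832 was the lowest of the 36. The comparisons that use it are also given without the week 18 arrays.

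Cpt2 fell into separate ranges. On the 11 LFC arrays its level ran from 0.84 to 6.14 with a median of 2.55, and on the 11 HFC arrays from 1.68 to 6.00 with a median of 2.41. On the 6 HF5 arrays it ran from 0.93 to 5.15 with a median of 1.71. The 5 HF20 arrays had 1.98 at week 3, 2.33 at week 6, 5.21 at week 9, 5.50 at week 12 and 5.44 at week 15, and the 5 HF75 arrays had 2.13, 2.57, 2.47, 1.72 and 2.34 at the same weeks. Cpt2 lay between 5.12 and 6.14 on 10 arrays and between 0.84 and 3.45 on the other 28, a gap of 1.67. The 10 arrays are HFC of day 1, LFC and HFC of day 6, LFC, HFC, HF5 and HF20 of week 9, LFC and HF20 of week 12, and HF20 of week 15. They come from every diet but HF75. The titles of both day 6 arrays hold P5, where those of the other arrays hold P4, and the titles of 4 week 9 arrays hold WS. The labels explain neither, and these arrays are all among the 10. This separation was noticed after the values were seen and is not tested. The 5 arrays of week 12 were scanned on one day, and LFC and HF20 lie in the upper range (5.42 and 5.50) and HFC, HF5 and HF75 in the lower (2.21, 1.67 and 1.72). Of these, HFC and HF5 share a slide, and LFC, HF20 and HF75 were each on a separate slide. No slide holds arrays of both ranges, so slide and range cannot be told apart, and the part of the slide was not tested.

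**Figure D1:**
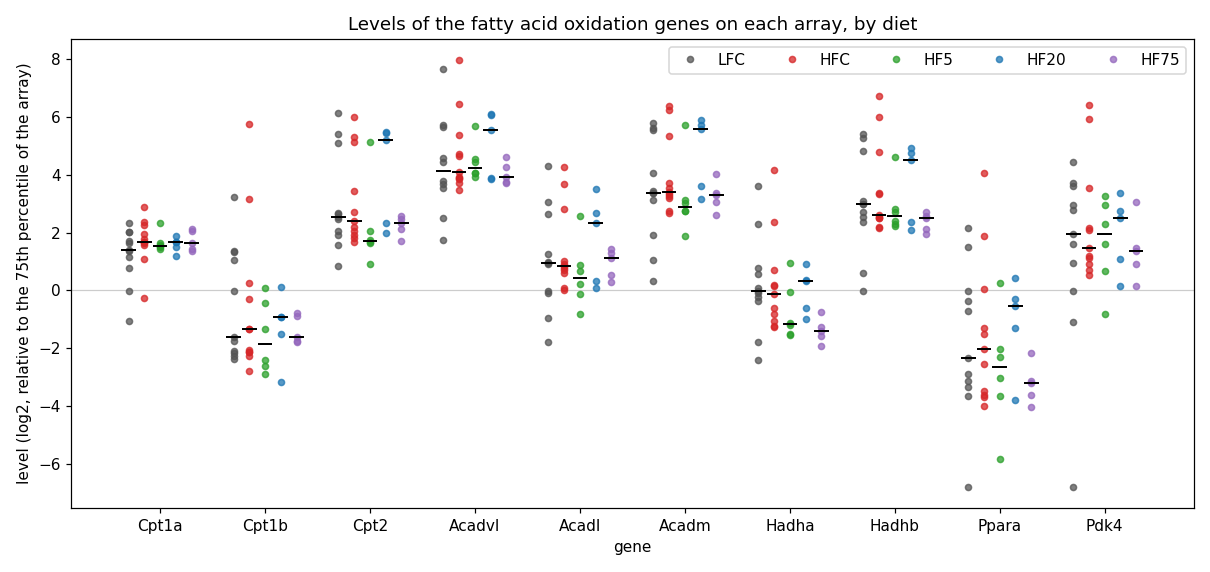
Level of each gene on each of the 38 arrays (vertical axis, log2 after the shift by the 75th percentile), by gene and diet; points are arrays and black bars are medians. Cpt2 lies between 5.12 and 6.14 on 10 arrays and at 3.45 or lower on the others.

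Both Cpt1 genes differ from Cpt2 in this. For Cpt1a the LFC arrays ran from -1.05 to 2.34 with a median of 1.39, the HFC arrays from -0.26 to 2.90 with a median of 1.67, and the HF5 arrays from 1.43 to 2.33 with a median of 1.55. On HF20, Cpt1a was 1.49, 1.67, 1.88, 1.19 and 1.67 from week 3 to week 15, and on HF75 1.38, 2.12, 1.45, 1.63 and 2.04. None of the 10 arrays named above was among the 10 highest for Cpt1a, and HFC of day 1, at -0.26, was the lowest HFC array. The other Cpt1a probe was also lowest on that array, at -2.90. Cpt1b had a median of -1.61 on LFC and -1.33 on HFC, with its highest levels on HFC of day 1 (5.75), LFC of day 6 (3.22) and HFC of day 6 (3.18). Of the 10 arrays, 7 were among the 10 highest for Cpt1b, and its other probe was also highest on HFC of day 1, at 4.60.

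The acyl-CoA dehydrogenases, Acadvl for very long, Acadl for long and Acadm for medium chains, catalyse the opening step of each cycle. For each of the 3, the same 10 arrays were the 10 highest. Acadm was 5.34 to 6.40 on them and 0.33 to 4.06 on the other 28. Acadl was 2.35 to 4.32 and -1.77 to 1.44, and Acadvl 5.39 to 7.97 and, over 27 arrays, 1.75 to 4.72. The Acadvl probe has no value on LFC of day 10, where its spot was an outlier, and it was saturated on 8 arrays, Acadm on 6, and Cpt2 and Hadhb on 2 each. Saturation follows the signal of the spot before the shift, so the levels on these arrays are lower bounds, and differences that use them are not exact. The 2 arrays for Cpt2 and Hadhb were HFC of day 1 and LFC of week 12.

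Hadha and Hadhb encode the α and β subunits of the trifunctional protein, which carries out the remaining steps on long chains. Hadhb had the same 10 highest arrays, at 4.50 to 6.72, with the other 28 between -0.03 and 3.37. For Hadha 9 of the 10 were among its 10 highest, and it was highest on HFC of day 1 (4.18) and LFC of day 6 (3.63). On HF75, Hadha was -1.26, -1.94, -0.74, -1.58 and -1.39 from week 3 to week 15, and on the HFC arrays of those weeks -1.28, -0.11, 0.69, -0.82 and -1.05.

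Ppara lay low on most arrays. Its median was -2.34 on LFC, -2.03 on HFC, -2.65 on HF5, -0.54 on HF20 and -3.21 on HF75, and it was not well above background on 4 arrays, LFC of weeks 3 and 18, LFC labelled day 14 and HF5 of week 3. Its highest levels were on HFC of day 1 (4.05) and LFC of week 12 (2.16), and among the arrays where Ppara was well above background the 10 arrays were its highest, at -0.54 or more, with the next at -0.71. Pdk4 had a median of 1.97 on LFC and 1.48 on HFC and was highest on HFC of day 6 (6.42) and HFC of day 1 (5.94). On LFC of week 18 both Pdk4 and Ppara were at the lowest level that array could measure, -6.79, and so were Adipoq and Ucp1, while Cpt1a was 2.03 there.

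The marker lists were read on the same 10 arrays, and their part in these levels was not tested. The summed level of the 8 adipocyte genes was 8.01 to 10.36 on them (median 8.38) and 0.26 to 8.46 on the other 28 (median 7.25), of which 4 reached 8.01. Its brightest probe on average, Fabp4, was 5.33 to 8.52 on the 10 arrays and -0.29 to 7.76 on the 28. The mean of the log2 levels of the list, in which each gene counts alike, was 4.47 to 5.99 on the 10 and -4.98 to 3.42 on the 28, and no other list had means on the 10 that were all apart from those on the 28. For the 6 brown and beige fat genes, with Cox7a1 as the probe brightest on average, it was 5.23 to 9.87 (median 6.42) against 0.40 to 5.33 (median 2.55), with 1 of the 28 arrays reaching 5.23. The 8 macrophage genes gave 2.03 to 4.62 (median 4.02) against 2.56 to 6.15 (median 4.49), and the 7 fibroblast genes 7.34 to 8.93 (median 7.78) against -1.61 to 9.33 (median 8.32). Medians of the lymph node list were 0.96 and 4.39, of the B cell list -0.20 and 3.77, of the T cell list 0.01 and 2.83 and of the epithelial list -2.15 and 2.14. The liver list has Alb as its brightest probe on average. It ran from -3.24 to 1.98 on the 10 arrays and from -5.64 to 1.55 on the other 28. Its median was -3.73 on the 28 and 5.03 higher on the 10, the widest gap between the medians of any list. Of its genes, Apoa1 and Ttr were not well above background on 33 and 32 arrays and Alb on 6. This gap and its rank are therefore not exact. For the endothelial, erythroid and skeletal muscle lists the medians were 4.49 and 4.88, 6.62 and 6.57, and 3.84 and 4.43. Fewer cells of a type and less RNA per cell cannot be told apart on these arrays.

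**Figure D2:**
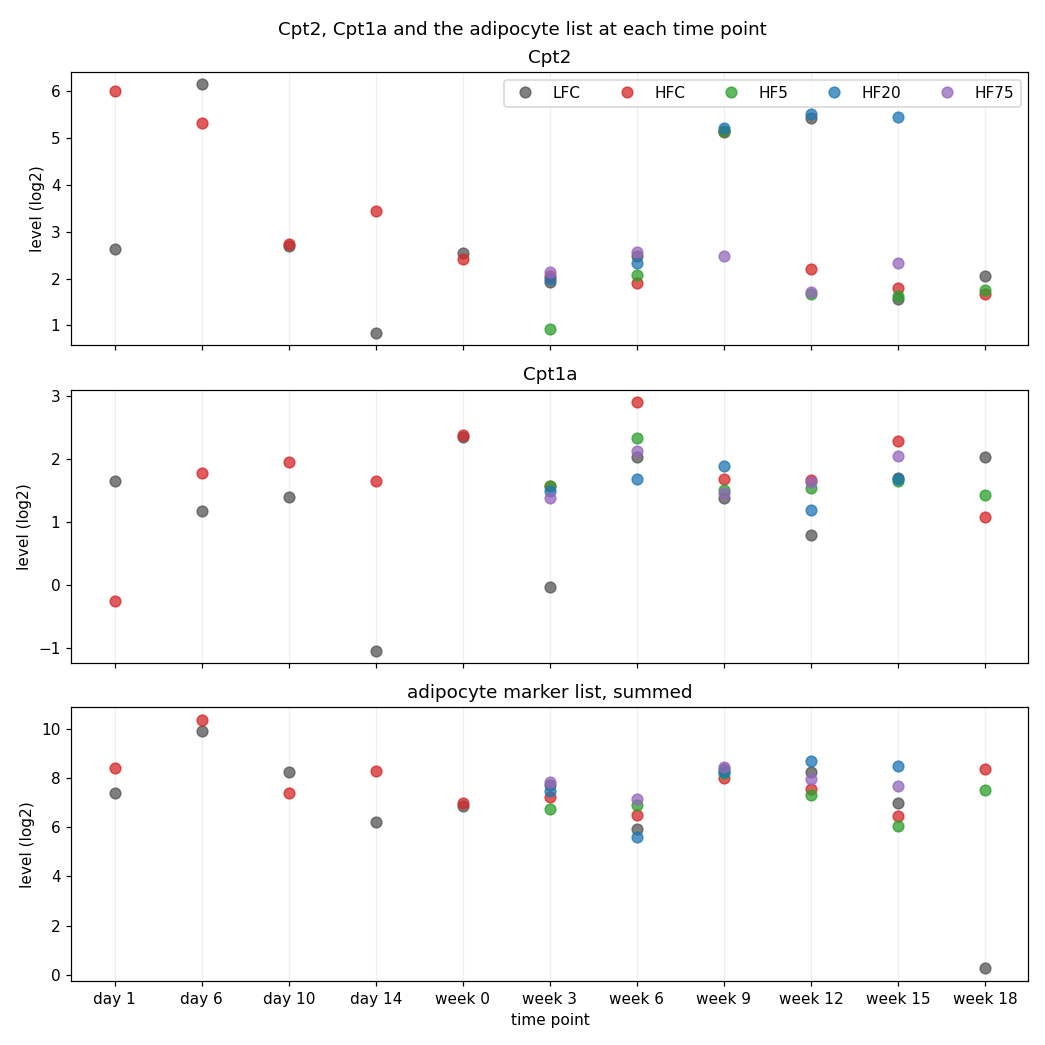
Level of Cpt2 (top), Cpt1a (middle) and the summed level of the 8 adipocyte genes (bottom) at each time point, in log2 after the shift by the 75th percentile; each point is 1 array, coloured by diet. At week 9 Cpt2 is 5.12 to 5.21 on LFC, HFC, HF5 and HF20 and 2.47 on HF75.

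The first comparison asks whether the high-fat diet alone goes with other levels of these genes. Over the 11 time points, each HFC array was set against the LFC array of the same label. Cpt2 had a mean of 3.15 on HFC and 3.04 on LFC, a difference of 0.12 (95% interval -0.92 to 1.16), and was higher on HFC at 6 of 11 time points. The difference of Pdk4 was 1.09 (interval -0.62 to 2.81), higher at 5 of 11, where week 18 gave at least 8.27, since Pdk4 on its LFC array was at the lowest level that could be measured, so this mean is not exact. Without the week 18 pair Pdk4 was 0.37 and Cpt1b -0.0055, and 0 probes passed in limma, with 628 at an unadjusted p under 0.05. Cpt1a was higher on HFC at 9 of 11 time points, with a difference of 0.48 (interval -0.32 to 1.28), but its other probe had -0.07. By limma, 0 of 29215 probes passed an adjusted p of 0.05, which is 0%, and 821, or 2.81%, had an unadjusted p under 0.05, none of them a probe of the 10 genes. The lowest adjusted p was 0.941. The median difference of the 10 genes was 0.40, all 10 positive (the other Cpt1b probe had -0.20), and of all probes -0.07, but without the day 1 pair 5 of the 10 were negative, Cpt1b at -0.77, Hadha at -0.44, Ppara at -0.30, Cpt2 at -0.21 and Acadl at -0.08. Hadha was lower on HFC at 8 of 11 time points, but at 1 of the 8, week 3, the LFC level is an upper bound above the HFC level and the direction is open. Without the 2 LFC arrays of low rank correlation and their HFC partners, Cpt2 was -0.16, Hadha -0.14, Pdk4 1.02 and Cpt1a 0.11. Acadvl was 0.02, Hadhb 0.11, Acadm 0.16, Acadl 0.18, Cpt1b 0.22 and Ppara 0.60. In this setting 0 probes passed, with 1107 at an unadjusted p under 0.05. Among the marker lists the median difference was 1.28 for fibroblast genes, all 7 higher, 0.87 for endothelial genes, all 6 higher, 0.81 for adipocyte genes, 6 of 8 higher, -1.32 for epithelial genes, all 5 lower, and -1.83 for Alb, the only liver gene tested, with the other 7 lists between -0.54 and 0.83. Without week 18 the median was 0.40 for fibroblast, 0.35 for endothelial and 0.04 for adipocyte genes, and without the 2 LFC arrays and their partners -0.78 for epithelial genes. None of these genes passed, and their part was not tested.

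Single time points ran in opposite directions. At day 1, 9 of 10 genes were higher on HFC, with a median difference of 3.85, and the exception, Cpt1a, had -1.91. At week 12, 9 of 10 were lower on HFC, with a median of -2.67, and Cpt1a had 0.87. At day 6, where both arrays belong to the 10 above and share a slide, the median was 0.48, and at week 9, where both do too, it was -0.05. Of the 2 pairs of day 14, the one labelled day 14, which holds an LFC array of low rank correlation, had all 10 genes higher on HFC, with a median of 2.65, and the one labelled week 0 had 6 of 10 lower, with a median of -0.07. At week 6, 9 of 10 were lower, with a median of -0.71, and the other 4 medians were between -0.08 and 0.36. Each of these values rests on 1 array per diet, and the day 1 pair is the only 1 of the 11 whose arrays were scanned on different days. Over the 10 other pairs Pdk4 was 0.77, and 0 probes passed, with 1807 at an unadjusted p under 0.05. Marker lists differed too in the pairs of day 1 and week 12. At day 1 the summed level of brown and beige fat genes was 7.82 on HFC and 4.15 on LFC. That of lymph node genes was -2.47 and 6.24, and of macrophage genes 2.03 and 4.24. At week 12 the same lists had 4.10 and 7.18, 2.81 and 1.12, and 4.49 and 3.66. The other lists follow as HFC and LFC at day 1, then at week 12. Adipocyte genes had 8.42 and 7.40, then 7.56 and 8.22. Skeletal muscle genes had 7.24 and 5.19, then 8.42 and -0.70. T cell genes had -1.73 and 4.73, then 1.31 and -2.09. B cell genes had -1.37 and 5.43, then 1.06 and -1.50. Epithelial genes had -2.14 and 4.10, then 1.63 and -2.36. The liver list had -3.24 and -0.49, then -4.32 and 1.53. Fibroblast genes had 7.34 and 7.92, then 8.61 and 7.61. Endothelial genes had 5.36 and 5.12, then 5.29 and 4.41. Erythroid genes had 7.33 and 7.38, then 6.86 and 6.63. The part of these lists was not tested.

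The same question was asked for the days up to 14 and for the later weeks separately. In the early period, 9 of the 10 differences were between 1.01 and 1.86, with Cpt1a at 0.39 (-0.35 for its other probe). In the late period 8 of 10 were negative (Acadm 0.02 with quantile normalization). The median difference of all probes was also positive early and negative late, with its values given below under the scaling. Late, Cpt1a was at 0.55 (0.17 for its other probe) and Pdk4 at 0.69 (-0.06 with normexp background correction). By limma, 0 of 29215 probes passed in either period, or 0%, with 915 (3.13%) early, the probes of Acadvl, Acadl, Acadm and Hadhb among them, and 1585 (5.43%) late, none of the 10 genes among them, at an unadjusted p under 0.05. Several of the early values depend on day 1. Without that pair Cpt1b was 0.20, Hadha 0.17, Cpt2 0.42, Ppara 0.73, Pdk4 0.88 and Acadl 1.01, and 0 probes passed. With 1 pair left out at a time, Hadhb ran from 1.12 to 1.88, Acadm from 0.96 to 1.76 and Acadvl from 0.82 to 1.69 early. Without the 2 LFC arrays of low rank correlation and their partners, Acadl was 1.61, Hadhb 1.16, Acadm 0.96, Acadvl 0.82 and Cpt1a -0.18 early. Cpt2 was 0.61, Hadha 0.64, Pdk4 1.39, Ppara 1.82 and Cpt1b 2.11. There 0 probes passed, with 2310 of 29298 (7.88%) at an unadjusted p under 0.05. None of the 10 genes was among these, and their lowest p in limma was 0.0785 for Hadhb. Late, 8 of 10 were negative there too and 0 passed, with 1750 (5.97%) at an unadjusted p under 0.05. Without week 12 the late differences of Acadm, Hadhb and Acadvl were 0.34, 0.30 and 0.05, and without week 18 that of Pdk4 was -0.82. The difference between the periods, late minus early HFC effect, was -2.65 for Acadl, -3.16 for Cpt1b, -1.64 for Cpt2 and 0.15 for Cpt1a (0.52 for its other probe). It passed for 0 of 29215 probes (0%), and 1305 (4.47%) had an unadjusted p under 0.05, Acadl and Cpt1b among them, each with an adjusted p of 0.789. Without the day 1 pair Cpt1b was -1.62, Cpt2 -1.05 and Acadl -1.81, and 0 passed, with 496 at an unadjusted p under 0.05. The median of the 10 was -1.68 and that of all probes -0.52. Of the 10 genes 9 had a negative difference, and of all 29215 probes 21380 had. With normexp in place of the processed signal, the median of all probes was 0.70, 4388 probes passed (15%), 4306 of them higher and 82 lower, and Acadl, at -2.51, was the only 1 of the 10 genes among them, with an adjusted p of 0.0498. Over the other alternatives its adjusted p ran from 0.561 to 1.00, and without days 1 and 6, chosen after seeing the data, its difference was -1.93. Without the 2 LFC arrays of low rank correlation and their partners it was -2.58, and 0 probes passed, with 2601 at an unadjusted p under 0.05. Without week 18 it was -2.73 and that of Pdk4 -2.40 in place of -0.88, and 0 passed, with 1555 at an unadjusted p under 0.05. In this comparison the median difference was 3.88 for T cell genes, 3.84 for lymph node genes and 3.47 for B cell genes, with all 5 of each list positive and 4, 3 and 1 at an unadjusted p under 0.05. It was 2.10 for fibroblast genes, all 7 positive, 0.92 for macrophage genes, all 8 positive, and -2.42 for brown and beige fat genes, all 5 tested negative, with the other 6 lists between -0.41 and 0.56. Without the day 1 pair it was 2.89 for T cell, 2.68 for lymph node, 1.79 for B cell, 0.47 for macrophage and -1.33 for brown and beige fat genes, and without week 18 0.17 for fibroblast genes. Without week 12 that of brown and beige fat genes was -1.20. None passed, and their part was not tested.

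Over both diets, levels of the late period were set against those of the early period. No slide and no scan day holds arrays of both periods, and the mice were older in the late period. Period, slide, scan day and age therefore cannot be told apart here. Pdk4 had a mean of 1.25 late and 2.52 early, a difference of -1.28 (interval -3.45 to 0.90), and Hadha -0.21 and 0.75, a difference of -0.96 (interval -2.34 to 0.42). Of the 10 genes, 8 had negative differences, with a median of -0.78 against 0.01 for all probes. By limma 1 of 30259 probes passed, or 0.0033%, and with slide or scan day as a random block 0 did. None of the 10 genes passed, and 1306 probes (4.32%) had an unadjusted p under 0.05, none of the 10 genes among them. Beside them, the median difference of the adipocyte list was -1.98 and of the brown and beige fat list -1.41, and 0 of their 14 genes passed, with 3 and 2 at an unadjusted p under 0.05. It was -1.39 for lymph node, -1.08 for endothelial, -1.02 for erythroid and 0.61 for macrophage genes, and between -0.85 and -0.31 for the other 6 lists, none passing. Leaving out 1 time point at a time gave -2.61 to -1.30 for adipocyte, -2.04 to -0.31 (without day 6) for brown and beige fat, -2.32 (without week 3) to -0.71 (without week 9) for lymph node, -1.34 to -0.68 (without week 18) for endothelial and 0.29 (without week 6) to 0.93 for macrophage genes, and the part of these genes was not tested. With the 2 LFC arrays of low rank correlation left out, 9 probes passed, none of the 10 genes among them, with Pdk4 at -1.55 and Hadha at -1.33. Without week 18 Pdk4 was -0.49, and 0 passed, with 1402 at an unadjusted p under 0.05. Without days 1 and 6, Cpt2 was 0.33, Acadm 0.52 and Ppara 0.64, so that 8 of the 10 differences changed sign, and 0 probes passed, with 1173 at an unadjusted p under 0.05.

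The Kal-1 doses were each compared with the HFC arrays of the same weeks, so the 3 comparisons share HFC arrays and are not independent. For HF5, Acadvl had a mean of 4.45 on HF5 and 4.09 on HFC, a difference of 0.36 (interval -0.06 to 0.78), and was higher on HF5 at 5 of 6 weeks, and Cpt1a had a difference of -0.19 (interval -0.63 to 0.25) and was lower at 5 of 6. The 10 differences lay between -0.27 and 0.36, with a median of -0.15 against 0.00 for all probes. By limma 0 of 29200 probes passed (0%), and 1504 (5.15%) had an unadjusted p under 0.05, none of them from the 10 genes. The median difference of the marker lists was 1.74 for epithelial genes, all 5 higher, -0.90 for erythroid, -0.72 for lymph node, -0.63 for T cell, -0.51 for fibroblast and -0.42 for macrophage genes, 6 of 8 lower, and between -0.46 and 0.11 for the other 6 lists, none passing. Leaving out 1 week at a time gave -1.26 (without week 12) to -0.11 (without week 15) for lymph node, -1.16 to -0.10 for T cell, by the same weeks, and -0.70 to -0.07 (without week 3) for fibroblast genes, and the part of these genes was not tested.

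For HF20 the 10 differences had a median of 0.90 against 0.08 for all probes, and 9 were positive. Acadm had levels of 3.16, 3.62, 5.60, 5.90 and 5.74 on HF20 from week 3 to week 15, and 2.76, 3.35, 5.34, 3.20 and 2.68 on HFC. Its difference was 1.34 (interval 0.06 to 2.62), positive at 5 of 5 weeks, with an unadjusted p in limma of 0.0427 and an adjusted p of 0.405 (0.134 to 1.00 over the alternatives). The Acadm probe was saturated on HF20 of weeks 9 and 12 and on HFC of week 9, so this difference is not exact. Cpt2 had a difference of 1.47 (interval -0.15 to 3.08), positive at 4 of 5, and Cpt1a -0.44 (interval -1.09 to 0.21), negative at 4 of 5. By limma 0 of 30831 probes passed (0%), and 3661, or 11.9%, had an unadjusted p under 0.05. Among the probes that stand for the 10 genes Acadm was the only 1 of these, and the other Cpt1a probe was too, in the opposite direction, at -0.58 with an unadjusted p of 0.0388 and an adjusted p of 0.405. The size rests on weeks 12 and 15, with medians of 1.97 and 2.57, while weeks 3, 6 and 9 had medians of 0.28, -0.19 and -0.30. Without weeks 12 and 15, an alternative chosen after seeing the data, Cpt1b, Acadl, Hadha, Hadhb and Pdk4 were negative, at -0.34, -0.06, -0.18, -0.19 and -0.28. Cpt2 was 0.14 and Acadm 0.31 in that alternative. Cpt1a was -0.24 without week 6 and -0.60 without week 9. On the same comparison 7 of the 8 adipocyte genes had positive differences, with a median of 1.77, and all 8 macrophage genes negative ones, with a median of -0.51. The median was -1.80 for T cell genes, 4 of 5 negative and 3 at an unadjusted p under 0.05, -1.61 for lymph node genes, 5 of 5 negative, -1.27 for B cell genes, 4 of 4 tested negative, and 3.09 for Alb, with the other 6 lists between -0.54 and 0.69. Without week 15 it was 1.06 for adipocyte, -0.57 for lymph node and -0.62 for B cell genes and 1.95 for Alb, and without week 9 -2.45 for lymph node genes. With 1 week left out at a time, brown and beige fat genes (0.57 over all weeks) ran from -0.17 to 1.75. Skeletal muscle genes (-0.21) ran from -1.15 to 1.49 and epithelial genes (0.69) from -0.11 to 1.24. None of these genes passed, and their part was not tested.

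Of the 4 comparisons between diets, HF75 minus HFC is the one in which probes passed, 294 of 28910, or 1.02%, with 235 higher and 59 lower (239 and 10 with normexp), and none of the 10 genes is among them. Hadha came nearest, with a mean of -1.38 on HF75 and -0.51 on HFC. Its difference was -0.87 (interval -1.65 to -0.08), negative at 4 of 5 weeks, with an unadjusted p in limma of 0.0343 and an adjusted p of 0.289 (0.121 to 0.984 over the alternatives). Hadha was the only 1 of the 10 genes among the 4210 probes (14.6%) with an unadjusted p under 0.05. Ppara had a difference of -0.90 (interval -2.12 to 0.33) and Cpt2 -0.38 (interval -1.57 to 0.81). Cpt1a had -0.29 (interval -0.84 to 0.25), negative at 5 of 5 weeks, and its other probe had -0.71. At week 9, where the HFC array is 1 of the 10 above and the HF75 array is not, all 10 differences were negative, with a median of -2.13. Without week 9, Cpt2 was 0.20, Acadm 0.25, Acadvl 0.29 and Pdk4 0.56, and Ppara was -0.32 and Hadhb -0.02 in place of -0.46. The median of the 10 was -0.26 and of all probes -0.01. The 294 depend on single arrays: without the week 3 pair 0 probes passed, without week 6 8, without week 9 205, without week 12 93 and without week 15 35, and with no replicate block, the pairing by week, 0 did, with 3673 at an unadjusted p under 0.05. Over the 2 pairs scanned on the same day, weeks 12 and 15, 0 passed, with 1685 at an unadjusted p under 0.05. The median difference was 1.88 for epithelial genes, 5 of 5 higher, -0.96 for macrophage genes, 7 of 8 lower and 4 at an unadjusted p under 0.05, and -0.83 for fibroblast genes, 5 of 7 lower and 5 at an unadjusted p under 0.05, of which Dpt passed. It was -1.45 for erythroid, 0.71 for skeletal muscle and 0.68 for lymph node genes and 0.79 for Alb, and between -0.21 and 0.29 for the other 5 lists. Without week 9 it was 0.78 for epithelial and -2.27 for erythroid genes, without week 6 -0.62 for macrophage genes, and without week 15 0.10 for Alb. Leaving out 1 week at a time gave -0.57 (without week 9) to 2.04 (without week 12) for skeletal muscle and -0.46 (without week 9) to 2.07 (without week 15) for lymph node genes, and the part of these genes was not tested.

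**Figure D3:**
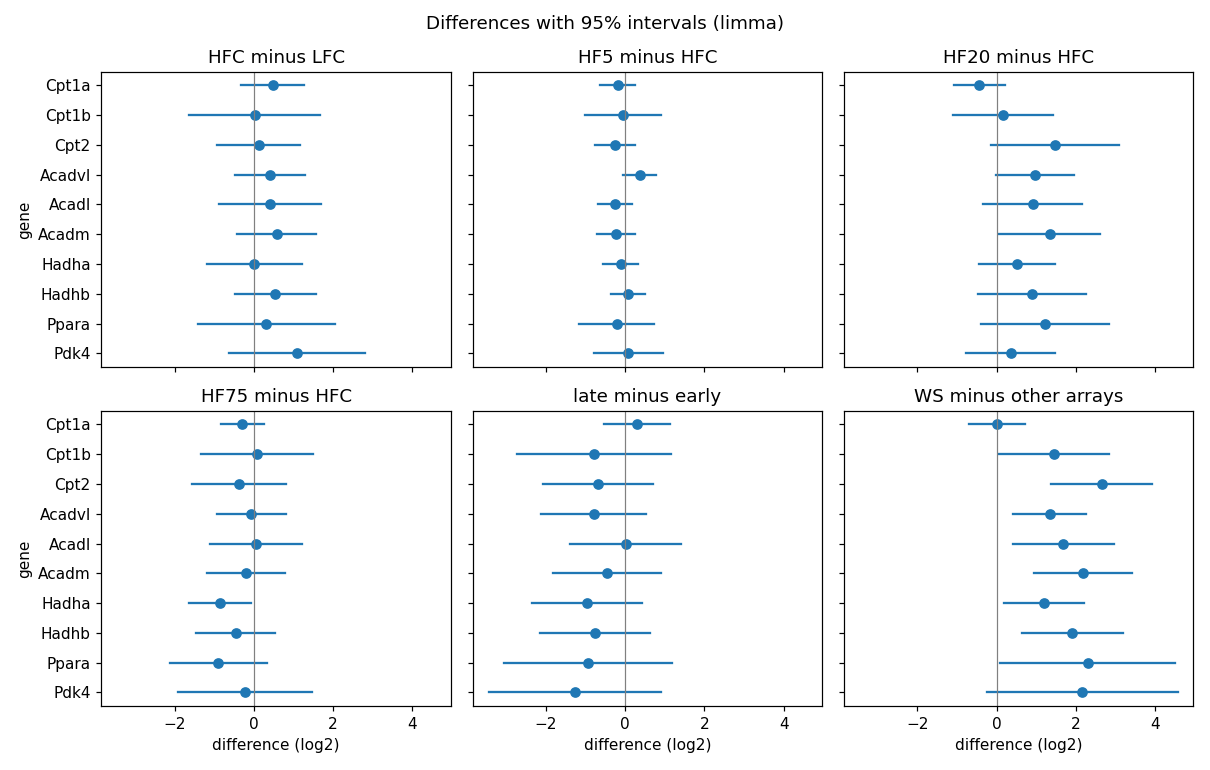
Differences of the 10 genes in 6 comparisons (horizontal axis, log2), with points for limma estimates and lines for 95% intervals. No gene passed an adjusted p of 0.05 in these comparisons, and the median difference of the 10 is 0.90 in HF20 minus HFC and 1.80 in WS minus other arrays.

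The 4 week 9 arrays with the letters WS in their titles are LFC, HFC, HF5 and HF20, and the title of the HF75 array of week 9 does not hold them. Among the arrays of LFC, HFC, HF5 and HF20 from week 3 on, these 4 were compared with the others. It was known from an earlier look that adipocyte genes were high on these 4. In this comparison every week 9 array holds WS in its title and no other array does, so WS and week 9 cannot be told apart. The 4 were scanned on one day, on 2 slides that held no other array, and the fit counts them as 4 separate arrays. Cpt2 was 5.12 to 5.21 on the 4 arrays, where the others ran from 0.93 to 5.50 with a median of 1.98 and 3 of them exceeded the lowest WS array. Its difference was 2.66 (interval 1.38 to 3.94), with an unadjusted p of 0.000295 and an adjusted p of 0.124 in limma. Acadm had a difference of 2.18 (interval 0.96 to 3.41), Ppara 2.30 (interval 0.09 to 4.52), Pdk4 2.16 (interval -0.24 to 4.57) and Cpt1a 0.00 (interval -0.71 to 0.71), with -0.38 for its other probe. The Ppara levels of LFC of weeks 3 and 18 and HF5 of week 3 in the reference were not well above background, so its difference is not exact, and it was 2.01 without week 3 and also without week 18. By limma 0 of 30510 probes passed (0%), while 5323, or 17.4%, had an unadjusted p under 0.05, among them 8 of the 10 genes, all but Cpt1a and Pdk4. The median of the 10 was 1.80 and that of all probes -0.08.

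The count for WS hangs on which arrays form the reference. Without the week 12 arrays 1431 of 30540 probes passed (4.69%), among them Cpt2 (3.00), Acadm (2.46), Hadhb (2.20), Acadl (1.98), Acadvl (1.54) and Hadha (1.40), with adjusted p from 0.00665 to 0.0499. With weeks 6 and 15 alone as the reference 2227 of 31346 passed (7.1%), among them Cpt2 (2.75), Acadm (2.01) and Hadhb (1.97). Both choices take out LFC and HF20 of week 12, which are 2 of the 3 reference arrays in the upper range of Cpt2. With scan day as a random block 0 probes passed under either choice, and Cpt2 had adjusted p of 0.131 and 0.275. With slide as a random block 0 passed with weeks 6 and 15 alone, and without week 12 301 of 30540 did (0.986%), among them Cpt2 (2.99), with an adjusted p of 0.0360, and no other of the 10 genes. These 4 fits were chosen after seeing the data. With the LFC array of week 3 left out, the only array of low rank correlation in this comparison, 10 probes passed, none from the 10 genes, and Cpt2 had 2.61 with an adjusted p of 0.0653. Without week 18 it had 2.60 with an adjusted p of 0.209, and 0 probes passed, with 4739 at an unadjusted p under 0.05. Over all alternatives Cpt2's adjusted p ran from 0.00665 to 0.564. Of the adipocyte list 7 of 8 genes had positive WS differences, with a median of 3.65, of the brown and beige fat list 5 of 6, with a median of 2.20, and of the macrophage list 6 of 8, with a median of 0.44 (0.26 without week 3). None passed, while 6, 3 and 2 had an unadjusted p under 0.05. The median was 4.47 for Alb, -3.59 for epithelial genes, 5 of 5 lower and 4 at an unadjusted p under 0.05, -2.87 for lymph node genes, 5 of 5 lower, -2.79 for B cell genes, 4 of 4 tested lower, -1.78 for T cell genes, 5 of 5 lower, and -1.07 for skeletal muscle genes. It was between -0.04 and 0.32 for the other 3 lists. None of these passed either, Alb had an unadjusted p under 0.05, and the part of these genes in the result was not tested. The Acadm probe was saturated on 3 of the 4 WS arrays and, in the reference, on LFC and HF20 of week 12. The Acadvl probe was saturated on LFC, HFC and HF5 of week 9. In the reference it was saturated on LFC of week 12 and HF20 of weeks 12 and 15. The probes of Cpt2 and Hadhb were saturated on LFC of week 12, so the differences of these 4 genes are not exact.

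The wider pathway was read from 6 lists of 62 genes, all matched on the array, 4 of them through older names. They cover carnitine transport and activation, the oxidation cycle with electron transfer, peroxisomal oxidation, Ppara's partners and known targets, control of pyruvate dehydrogenase, and malonyl-CoA, the inhibitor of Cpt1. In each of the 7 comparisons 0 of the genes tested passed in either direction in limma. At an unadjusted p under 0.05 there were 2 of 58 in HFC minus LFC, 3 of 57 in HF5, 14 of 60 in HF20, 5 of 57 in HF75, 2 of 59 in late minus early, 8 of 58 for the difference between periods and 35 of 60 in WS minus other arrays. Of all probes 2.81%, 5.15%, 11.9%, 14.6%, 4.32%, 4.47% and 17.4% did in the same order. The medians were 0.17, -0.06, 0.86, -0.25, -0.27, -1.26 and 1.15 in the same order. Of the 70 marker genes matched, out of 71, only the fibroblast gene Dpt passed in any comparison, with -2.43 in HF75 minus HFC and an adjusted p of 0.0393.

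No correlation between the genes is given, since the arrays fall into separate ranges for Cpt2, Acadm and Acadl. As a description, the genes nearest to 9 of the 10 over 32 arrays, leaving out the 4 WS arrays and the 2 LFC arrays of low rank correlation, were found by Pearson's r among 19048 other genes, and the r reflects that separation. Cpt2 was nearest to Hibch (0.976), Nudt7 (0.972) and Brp44l (0.966), and Acadm to 4931406C07Rik (0.965), Hadh (0.958) and Acat1 (0.957). Hadha was nearest to Poldip2 (0.967), Ndufa11 and Mrpl4, Hadhb to Idh3a (0.954), Gm9108 and Brp44l, and Acadl to Dnaja3 (0.932), Etfa and Gm6181. Ppara was nearest to Echdc3 (0.938), 4931406C07Rik and Ddo, Pdk4 to 1520402A15Rik (0.908), Clic5 and Dlc1, and Cpt1b to Gm6419 (0.898), Yjefn3 and Cox7a1. Cpt1a was nearest to Zyx (0.873), Mpeg1 (0.776) and Renbp (0.767), none of which is among those of the other 8 genes given here.

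Promoters were available for 9 of the 10 genes from RefSeq (GRCm38.p6), all but Cpt1b. Hadha and Hadhb lie head to head on chromosome 5: their windows, chr5:30154931-30155230 on the minus strand and chr5:30155003-30155302 on the plus strand, share 228 of 300 bases. A perfect form of the element that Ppara binds with its partner Rxra, 2 copies of AGGTCA in the same direction with any 1 base between them, was searched on both strands in the 250 bases before the start. It was in none of the 9 and in 0.0335% of 32851 promoters. A single AGGTCA, which the longer motif contains, was in 3 of the 9 and in 14.0% of all promoters. Acadm and Acadvl, which hold a match, had the same 10 highest arrays, and so had Cpt2, Acadl and Hadhb, which hold none. Cpt1a holds a match and had none of these arrays among its 10 highest. The stretches around all the matches in these genes are shown. They run 5′ to 3′ on the strand of the gene, with AGGTCA or its reverse complement in capitals, which begin 249 bases before the start of Acadm, 87 before that of Acadvl and 94 before that of Cpt1a. A match is a description of letters and says nothing of binding.
Acadm: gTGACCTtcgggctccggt
Acadvl: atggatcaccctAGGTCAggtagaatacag
Cpt1a: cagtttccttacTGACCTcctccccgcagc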

How the data were processed

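The 40 deposited files are 1-colour Agilent scans of a custom 44K array (Feature Extraction 10.5.1.1 per the file headers), and the authors deposited intensity values, of which the background-subtracted processed signal was used. The 2 arrays with conflicting labels were left out of every comparison. Outlier spots were dropped, log2 values were shifted by the 75th percentile of each array, spots of a probe were averaged, and values near background were set to no less than the lowest level that the array measured well above it. Limma 3.58.1 in R 4.3.3 (tested on simulated data) was fitted, leaving out probes that were dim on more than 50% of the arrays in both groups, with Benjamini-Hochberg adjustment. Time point labels paired the arrays. Deviations of paired arrays correlated above 0.1 in 8 of 11 HFC and LFC pairs, 6 of 6 for HF5, 3 of 5 for HF20 and 3 of 5 for HF75. Python 3.11.15, NumPy 2.4.6, pandas 2.3.3 and SciPy 1.17.1 made the tables. Alternatives were quantile normalization, normexp (offset 50), other filters and blocks, and arrays left out. All 10 genes were tested in every comparison, and the text gives values for some of them. The genes and lists were chosen with earlier results of these data known. The number of arrays limits the precision.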

Additional observations from a re-analysis of the deposited data

Results flagged for a closer look

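In 30 tests of a single array against the others of its diet (10 genes on HF5, HF20 and HF75, by Dixon's ratio), 5 stood out, all on HF5, where chance gives about 1 in 20. On HF5 of week 9, a WS array, Cpt2 was 5.15 against 0.93 to 2.07 on the other HF5 arrays, Acadvl 5.68 against 3.94 to 4.54, Acadm 5.72 against 1.87 to 3.14 and Hadhb 4.61 against 2.22 to 2.81. On HF5 of week 6, Cpt1a was 2.33 against 1.43 to 1.65. The 4 values of week 9 come from 1 array and are not independent, and the summed adipocyte level of that array was 8.18. In the upper range of Cpt2, HF5 has the array of week 9 alone, HF20 those of weeks 9, 12 and 15, and HF75 none. The test looks for 1 array apart from the rest of its diet. These 4 values thus restate the separation seen before, which the test could mark only on HF5. What sets the HF5 arrays of weeks 6 and 9 apart was not tested.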

How the results depend on the processing

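Of 1608 differences of the 10 genes under the alternatives, 1467 kept their direction and their side of the threshold, 130 changed sign and 11 passed the threshold. The 11 are those given in the report for WS minus other arrays and, with normexp, for Acadl in the difference between periods. None of the 130 passed it.

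By limma, 0 probes passed under any alternative in HFC minus LFC, HF5 minus HFC and HF20 minus HFC, where 124 to 2015, 397 to 8299 and 574 to 10038 had an unadjusted p under 0.05, and taking out the pairing block changed no call there. For the HFC effect of the early or the late period 0 passed under any alternative fitted, where 484 to 12233 and 1070 to 2034 had an unadjusted p under 0.05, and a fit with no pairing block was not made. In HF75 minus HFC, with 294 probes in the report, 148 passed with no filter, 149 with probes well above background on every array, 0 with no replicate block, 0 with all 38 arrays in one fit and 0 over the 2 pairs scanned on one day, and leaving out 1 pair at a time gave 0 to 205. In late minus early, with 1, none passed (0) with quantile normalization, normexp, no filter, slide or scan day as a random block, without week 9 and without days 1 and 6, 2 passed with probes well above background on every array, 9 without the 2 LFC arrays of low rank correlation, and 0 to 4 leaving out 1 replicate number; 382 to 3247 had an unadjusted p under 0.05. In the difference between periods 4388 passed with normexp. In WS minus other arrays 10 passed without the LFC array of week 3, 2227 with weeks 6 and 15 only as the reference, 301 with slide as a random block and without week 12, 0 with the same block and weeks 6 and 15 only as the reference, 0 with scan day as a random block and either choice of reference, and 0 to 1431 leaving out 1 week. Cpt2 was 2.99 in the fit with 301. The causes were not tested.

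Scaling moved the median difference of all probes by over 0.1 with normexp, to -0.30 in HF5 minus HFC, -0.39 in HF20 minus HFC, -0.23 in HF75 minus HFC, -0.21 in late minus early, -0.21 in WS minus other arrays, -0.42 in place of 0.21 for the early and 0.31 in place of -0.28 for the late HFC effect, and 0.70 in place of -0.52, a change of sign, in the difference between periods, and to 0.25 in late minus early, 0.10 for the early HFC effect and -0.41 in the difference between periods with quantile normalization.

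The changes of sign follow by setting, as log2 differences. With the mean of all probes of the gene, Cpt1b was -0.13 in HFC minus LFC, and Cpt1b was -0.018 in HF75 minus HFC, and Cpt1a was -0.19 in WS minus other arrays. With scan day as a random block, Cpt1b was -0.13, Hadha -0.080 in HFC minus LFC, and Acadl was -0.013 in late minus early, and Cpt1a was -0.18 in late HFC effect minus early HFC effect. Over only the 4 pairs sharing a slide, Cpt1b was -0.76, Cpt2 -0.20, Hadha -0.70, Ppara -0.94 in HFC minus LFC. Over only the 10 pairs scanned on one day, Cpt1b was -0.77, Cpt2 -0.21, Acadl -0.076, Hadha -0.44, Ppara -0.30 in HFC minus LFC. Without days 1 and 6, Cpt1b was -0.85, Cpt2 -0.14, Acadl -0.16, Hadha -0.35, Ppara -0.37 in HFC minus LFC, and Cpt1b was 0.90, Cpt2 0.33, Acadvl 0.53, Acadm 0.52, Hadha 0.19, Hadhb 0.30, Ppara 0.64, Pdk4 0.11 in late minus early, and Cpt1a was -0.55, Pdk4 0.17 in late HFC effect minus early HFC effect. Without the 2 LFC arrays of low rank correlation and their HFC partners, Cpt2 was -0.16, Hadha -0.14 in HFC minus LFC, and Cpt1a was -0.18 in HFC effect of the early period. With normexp, Cpt1a was 0.096, Cpt2 0.016, Acadm 0.053 in HF5 minus HFC, and Cpt1b was -0.028 in HF20 minus HFC, and Cpt1b was -0.020, Acadvl 0.045 in HF75 minus HFC, and Cpt1a was -0.35 in late HFC effect minus early HFC effect, and Pdk4 was -0.059 in HFC effect of the late period. With quantile normalization, Cpt1b was 0.027 in HF5 minus HFC, and Cpt1a was -0.24 in late HFC effect minus early HFC effect, and Cpt1a was -0.094 in WS minus other arrays, and Acadm was 0.021 in HFC effect of the late period. Without the week 9 arrays, Cpt1b was 0.070 in HF5 minus HFC, and Cpt2 was 0.20, Acadvl 0.29, Acadm 0.25, Pdk4 0.56 in HF75 minus HFC, and Acadl was -0.29 in late minus early. Over only the 3 pairs sharing a slide, Cpt1b was 0.35, Ppara 0.29 in HF5 minus HFC. With all 38 arrays in one fit, Hadhb was -0.32, Pdk4 -0.13 in HF5 minus HFC, and Cpt1b was -0.52, Pdk4 -0.26 in HF20 minus HFC, and Cpt1b was -0.61, Acadl -0.55 in HF75 minus HFC. With slide as a random block, Pdk4 was -0.017 in HF5 minus HFC, and Cpt1a was -0.030 in WS minus other arrays. Without weeks 12 and 15, Cpt1b was -0.34, Acadl -0.056, Hadha -0.18, Hadhb -0.19, Pdk4 -0.28 in HF20 minus HFC. Over only the 2 pairs scanned on one day, Cpt1b was -0.018, Cpt2 0.021, Acadm 0.24, Hadhb 0.0050, Pdk4 0.55 in HF75 minus HFC. Without the floor, Acadl was -0.075 in late minus early. Without the 2 LFC arrays of low rank correlation, Acadl was -0.21 in late minus early. Without the 1 of them in that comparison, LFC of week 3, Cpt1a was -0.080 in WS minus other arrays. With weeks 6 and 15 only as the reference, Cpt1a was -0.42 in WS minus other arrays. With scan day as a random block, it was -0.049 without week 12 and -0.42 with weeks 6 and 15 only as the reference, and with slide as a random block -0.13 and -0.44. Alternatives by scan day, slide with fewer reference arrays, shared slides, days 1 and 6 and weeks 12 and 15, and those for the HFC effects of the periods, were chosen after seeing the data.

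Leaving out 1 replicate or week at a time gave these ranges for the genes that changed sign. In HFC minus LFC, Cpt1b ran from -0.77 to 0.40, Cpt2 from -0.21 to 0.45, Acadl from -0.076 to 0.81, Hadha from -0.44 to 0.32, Ppara from -0.30 to 0.81. In HF5 minus HFC, Cpt1b ran from -0.52 to 0.13, Hadha from -0.19 to 0.0008, Hadhb from -0.027 to 0.15, Ppara from -0.53 to 0.11, Pdk4 from -0.21 to 0.35. In HF20 minus HFC, Cpt1b ran from -0.41 to 0.49, Pdk4 from -0.12 to 0.65. In HF75 minus HFC, Cpt1b ran from -0.26 to 0.60, Cpt2 from -0.64 to 0.20, Acadvl from -0.30 to 0.29, Acadl from -0.19 to 0.64, Acadm from -0.41 to 0.25, Pdk4 from -0.77 to 0.56. In late minus early, Cpt1b ran from -1.34 to 0.015, Acadvl from -1.34 to 0.0092, Acadl from -0.39 to 0.55, Acadm from -0.97 to 0.065. In late HFC effect minus early HFC effect, Cpt1a ran from -0.42 to 0.73. In WS minus other arrays, Cpt1a ran from -0.12 to 0.16. In HFC effect of the early period, Cpt1a ran from -0.18 to 0.97. In HFC effect of the late period, Acadvl ran from -0.45 to 0.048, Acadm from -0.48 to 0.34, Hadhb from -0.73 to 0.30, Pdk4 from -0.82 to 1.28.

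Slide as a block could not be fitted for HF20 and HF75, since no slide holds 2 of the arrays compared. The median signal over background was 1.53 on LFC of week 3 and 4.86 as the median of the 38 arrays, which limits dim probes there.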

Other observations

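Of the 40 arrays, 2 of week 18 carry labels that conflict and belong to no group. On 1 of them, with 21710 outlier spots, the levels were 0.62 for Acadm, -0.14 for Cpt2 and -0.58 for Cpt1a, and Ppara had no value. On the other they were 3.61, 2.39 and 1.92, with -3.21 for Ppara, and its summed adipocyte level was 8.11. None of the 10 genes was above the highest LFC array on either.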
